A study of Mus musculus with 12 samples.

Results

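Hepatokines are proteins that the liver releases into the blood and that act on other organs. The 9 genes examined in liver RNA of *db*/*db* mice were *Fgf21*, the angiopoietin-like genes *Angptl4* and *Angptl6*, *Gdf15*, the fetuin genes *Ahsg* and *Fetub*, the retinol carrier *Rbp4*, *Lect2* and *Selenop*, which the array's older annotation names *Sepp1*. They were taken from a list of names, and every non-control probe whose RefSeq record belongs to one of them was kept. Each gene had 1 probe with 1 spot, so 9 of the 39429 probes on the array, or 9 of 20283 gene symbols, are described.

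The study used male *db*/*db* mice, 8 weeks of age per the labels, whose leptin receptor does not work and which become obese and diabetic. Treated mice took up H2 in one of 2 forms. Some received MgH2, which releases H2 in water, by gavage once daily at 0.9 mg/kg per the labels for 1, 3 or 7 days, with gavage of Mg(OH)2 as the control per the study's methods. Others drank H2-water at 0.8 mM for 14 days, with degassed water as the control. The 9 livers of a group gave 3 RNA pools, each from 3 animals, and each two-color array set a treated pool (Cy5) against a control pool (Cy3), with 3 arrays per group and 12 in all. The dyes were never swapped, so dye and treatment cannot be told apart in a ratio. The 14-day arrays differ from the others in agent, control, mice and slide at once.

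FGF21 is secreted during fasting and in mitochondrial or amino acid stress, and acts through FGF receptors together with the co-receptor beta-klotho. In liver its gene is a target of the fatty acid sensor PPAR-alpha, of ATF4, the transcription factor of the integrated stress response, and of ChREBP, which responds to sugar. ANGPTL4 inhibits lipoprotein lipase, the enzyme that frees fatty acids from circulating triglyceride, and its gene is a PPAR-alpha target too. GDF15 is a stress-induced member of the TGF-beta family that lowers food intake through a receptor in the hindbrain. RBP4 carries retinol from the liver, and fetuin-A, the product of *Ahsg*, binds calcium phosphate and inhibits the insulin receptor.

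*Fgf21* lies at chr7:45613890-45615490 (GRCm38.p6), *Angptl4* at chr17:33774900-33781575, *Angptl6* at chr9:20873808-20879822, *Gdf15* at chr8:70629393-70632470, *Rbp4* at chr19:38116620-38125321, *Lect2* at chr13:56529734-56548559 and *Selenop* at chr15:3270767-3280510. *Ahsg*, at chr16:22892015-22899451, and *Fetub*, at chr16:22918382-22939768, are neighbors and descend from a shared cystatin-type ancestor.

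The promoters of *Fgf21*, *Rbp4* and *Gdf15* are shown because the ratios of these genes and of factors that bind such motifs are described further on. Of the 9 genes, 8 had an entry in the RefSeq promoter table (GRCm38.p6). *Angptl4* had none. The 250 bases before a transcript start were searched for 4 motifs, and matches are printed in capitals. TGATGNAAT is the C/EBP-ATF response element bound by ATF4 and was searched on both strands. The E-box, CACGTG, was searched on both strands. So was AGGTCA, the half-site of nuclear receptors. TATAAA, the TATA box, was searched on the strand of the gene. No match overlaps another in these windows. Each sequence reads 5′ to 3′ on the minus strand and ends at the base before the start.
Fgf21, chr7:45615491-45615740: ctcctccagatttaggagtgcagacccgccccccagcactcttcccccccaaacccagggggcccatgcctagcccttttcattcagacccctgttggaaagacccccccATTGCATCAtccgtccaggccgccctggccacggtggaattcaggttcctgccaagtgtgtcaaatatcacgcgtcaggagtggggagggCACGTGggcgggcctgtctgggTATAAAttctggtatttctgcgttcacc
Rbp4, outer start, chr19:38125322-38125571: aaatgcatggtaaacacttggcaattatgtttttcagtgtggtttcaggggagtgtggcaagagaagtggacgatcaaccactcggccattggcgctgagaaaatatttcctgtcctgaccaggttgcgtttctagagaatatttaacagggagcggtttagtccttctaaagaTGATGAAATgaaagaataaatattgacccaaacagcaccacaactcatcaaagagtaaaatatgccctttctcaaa
Rbp4, inner start, chr19:38124812-38125061: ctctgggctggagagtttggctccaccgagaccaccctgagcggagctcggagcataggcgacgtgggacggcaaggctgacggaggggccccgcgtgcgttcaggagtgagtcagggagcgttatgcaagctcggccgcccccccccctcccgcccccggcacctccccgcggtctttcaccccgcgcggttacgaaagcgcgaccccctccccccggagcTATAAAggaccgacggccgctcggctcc
Gdf15, outer start, chr8:70632457-70632706: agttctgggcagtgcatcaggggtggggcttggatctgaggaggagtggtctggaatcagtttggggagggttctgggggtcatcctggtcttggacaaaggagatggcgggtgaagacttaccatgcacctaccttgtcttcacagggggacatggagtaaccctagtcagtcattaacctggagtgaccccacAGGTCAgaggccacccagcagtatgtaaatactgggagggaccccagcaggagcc
The *Fgf21* window held the response element in reverse orientation 140 bases before the start, the E-box 50 bases before it and the TATA box 28 bases before it. At the outer start of *Rbp4* a response element lay 76 bases before the start, and at the inner start a TATA box lay 28 bases before it. The outer window of *Gdf15* held a half-site 55 bases before the start, and a second window of that gene, not printed, held an E-box. Over 32851 promoter windows of the same length, the response element occurred in 0.816%, the E-box in 6.02%, the half-site in 14% and the TATA box in 7.59%. *Ahsg*, with 1 window, held none of the 4 motifs. These are matches of letters and carry no evidence of binding.

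All values below are the log2 ratio of Cy5 over Cy3, so a value above 0 means more RNA in the treated pool. In an array, 51.8% to 56.5% of spots exceeded background in Cy3 and Cy5 alike, and none (0) reached saturation. A probe was tested with limma if Cy3 and Cy5 both exceeded background on every array of the comparison, and was called changed at a Benjamini-Hochberg adjusted *P* under 0.05 over all such probes. By this rule 9.39% of 19660 probes were called at 1 day (5.15% higher and 4.24% lower), 23.4% of 19414 at 3 days (12.3% and 11.1%), 29.5% of 19455 at 7 days (15.3% and 14.3%) and 8.84% of 20411 at 14 days (4.92% and 3.91%), the background for every count below. At 7 days 2973 were called higher and 2775 lower, but 967 and 5190 once each array was centered on its median log2 ratio. Defining hepatocyte markers such as *Alb* and *Apoa1* were above background on all 12 arrays. Of 7 adipocyte markers, *Adipoq*, *Plin1* and *Lep* were above background on none, while *Retn*, *Cfd*, *Lipe* and *Adig* were above it on some array. In such tissue RNA, fewer cells of a type and less RNA per cell cannot be told apart.

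Of the 9 hepatokine genes, 8 were above background in both channels throughout and *Fgf21* was not. Of the 8 tested, 0 were called at 1 day, 2 at 3 days, both higher, 4 at 7 days, 3 of them higher, and 0 at 14 days. Among all probes 12.3% were called higher at 3 days, and 15.3% higher and 14.3% lower at 7 days. The median log2 ratio of the 8 genes was 0.06, 0.02, 0.04 and −0.00 at 1, 3, 7 and 14 days, beside −0.00, 0.00, 0.01 and −0.00 for all probes tested. *Angptl4* and *Rbp4* were higher in the treated pools at 3 and 7 days, *Ahsg* was higher at 7 days and *Gdf15* was lower at 7 days.

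**Figure D1:**
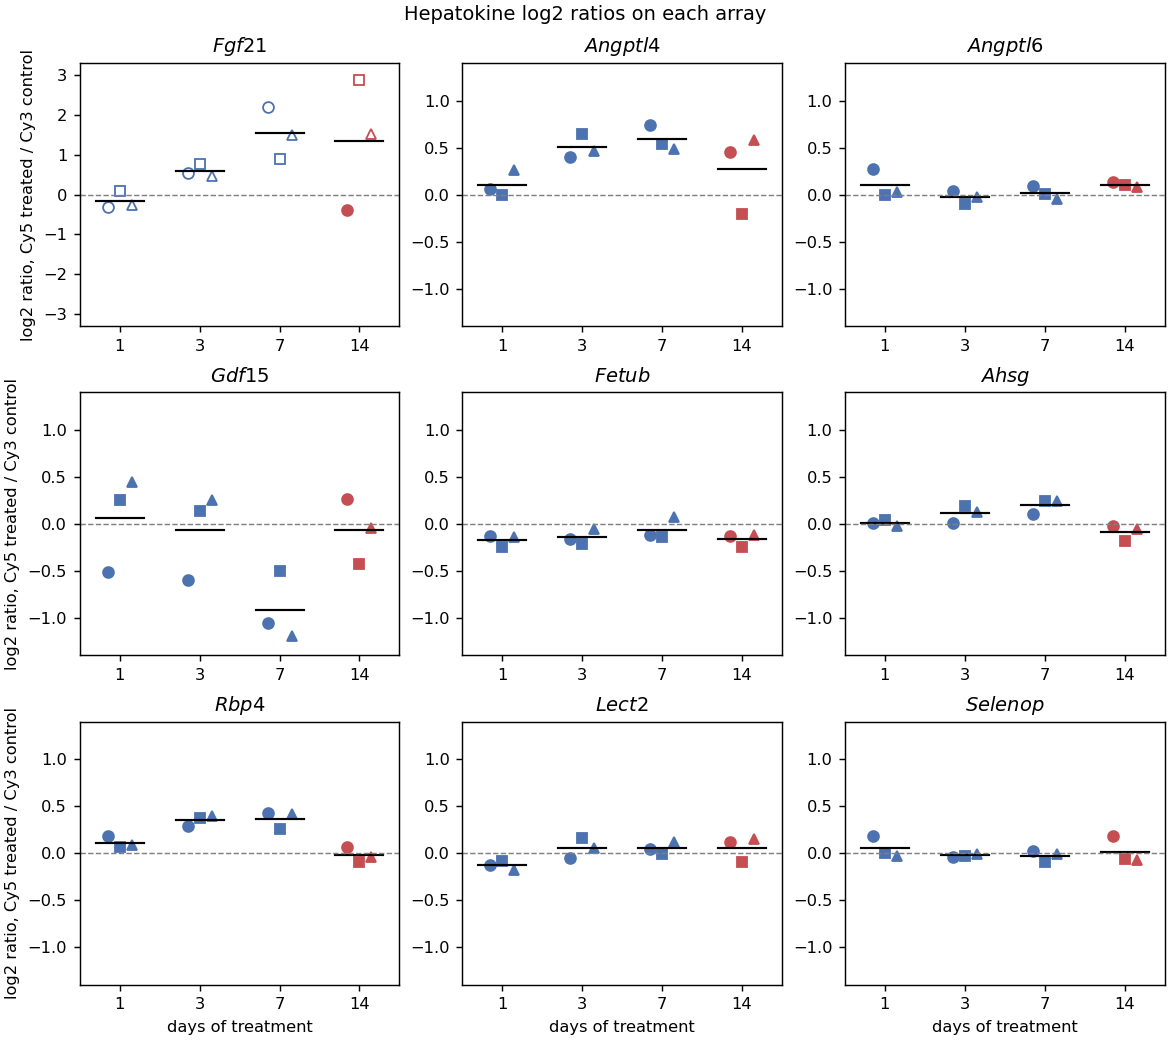
Log2 ratio of treated over control RNA (y axis) for each of the 9 hepatokine genes at 1, 3, 7 and 14 days of treatment (x axis). Blue points are MgH2 gavage and red points H2-water, with circle, square and triangle for arrays 1, 2 and 3, open points where a channel was not above background and a black line at the mean of 3 arrays. The *Fgf21* axis is wider than the others. *Angptl4* and *Rbp4* lie above 0 on all arrays of 3 and 7 days, *Gdf15* lies below 0 on all 3 arrays of 7 days, and *Selenop* stays close to 0.

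*Fgf21* was a dim probe, and its signals in each channel are given before any ratio. At 1 day the control signals were 9.75, 10.1 and 9.93 intensity units and the treated signals 7.92, 10.8 and 8.32, none of them above background. At 3 days the control signals were 10.5, 8.59 and 14.0, all at background, and the treated signals 15.2, 14.7 and 19.6, all above it. At 7 days the control signals were 7.66, 8.22 and 5.40, again at background, and the treated signals 35.4, 15.4 and 15.3, all above it. The treated signals of 3 and 7 days thus all exceeded every control signal of the same time. At 14 days the control signals were 22.7, 3.67 and 6.50, of which the first alone was above background, and the treated signals 17.5, 27.1 and 18.7, all above it. On the first array of 14 days the control pool was the brighter one.

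The log2 ratios of *Fgf21* were −0.30, 0.09 and −0.26 at 1 day, 0.54, 0.78 and 0.48 at 3 days, 2.21, 0.90 and 1.50 at 7 days, and −0.38, 2.89 and 1.52 at 14 days, above 0 on 9 of 12 arrays. Since the control channel gives only a bound, the treated signal was set against that bound as a mean over 3 arrays. It came to 1.30-fold at 3 days and 2.07-fold at 7 days, without a measure of spread. Array 2 of 7 days, at a measured 1.87-fold, lay below the mean of its time, so these values are no minimum for a single array. Each value sets the mean treated signal against, per array, the higher of the control spot and the dimmest probe above background. When all 39429 probes were fitted without the background filter, the mean log2 ratio at 7 days was 1.54 (limma, adjusted *P* = 0.0462). In that fit 15.6% of all probes were called higher and 6.16% lower, with a median of 0.09, so unfiltered probes leaned toward Cy5. The corresponding adjusted *P* values were 0.916 at 1 day, 0.572 at 3 days and 0.129 at 14 days. A probe with Cy5 above background on all 3 arrays and Cy3 on none, the pattern of *Fgf21* at 3 and 7 days, was found for 0.18% of all probes at 3 days and 0.0482% at 7 days. The opposite pattern was found for 0.0558% and 0.484%. At 14 days, when *Fgf21* showed the first pattern on 2 of 3 arrays, 440 probes (1.12%) had it in full and 1 probe (0.00254%) had the opposite one. These counts concern the background flags, and the median log2 ratio of all probes at 14 days without the filter was −0.06.

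**Figure D2:**
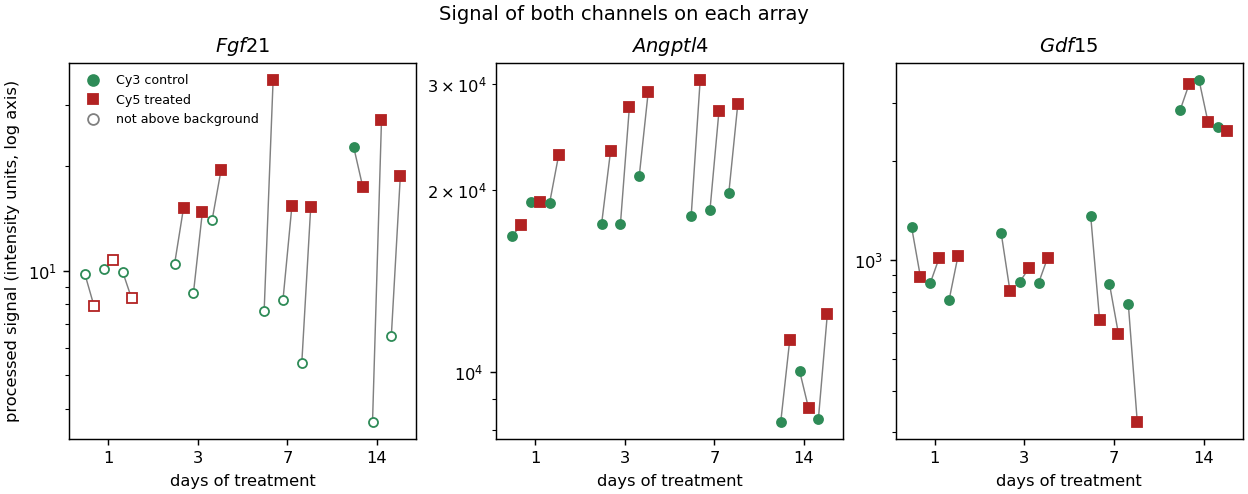
Processed signal of *Fgf21*, *Angptl4* and *Gdf15* in each channel (y axis, intensity units, log scale) on the 12 arrays, grouped by days of treatment (x axis). Green circles are the control pools (Cy3) and red squares the treated pools (Cy5), lines join the channels of an array, and open symbols mark spots not above background. *Fgf21* has filled red squares and open green circles at 3 and 7 days. *Gdf15* has treated signals of 658, 598 and 323 at 7 days, below each control pool on its array.

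Of the 12 transcription factors that act on *Fgf21*, all were tested, and 2 were called higher at 1 day, 3 at 3 days, 3 at 7 days and 1 at 14 days, with 1 called lower at 3 days and 1 at 7 days. *Ppargc1a*, a coactivator of PPAR-alpha, had ratios of 0.42, 0.89 and 0.43 at 3 days and 0.98, 0.60 and 0.74 at 7 days. Its means were 0.58 ± 0.27 (SD, n = 3, adjusted *P* = 0.033) and 0.77 ± 0.19 (adjusted *P* = 0.00768), and its other probe was called as well at both times. At 1 day *Ppargc1a* had a mean of 0.07 (adjusted *P* = 0.831), and at 14 days its arrays read 0.46, −0.58 and 0.09 and straddled 0. *Atf4* was higher by 0.34 at 1 day, 0.37 at 3 days and 0.34 at 7 days (adjusted *P* = 0.000644, 0.00028 and 0.000296). It lay above 0 on all 12 arrays, as did 7.26% of 18397 probes, a pattern that a dye effect of the probe would share. Its other probe was called at 1 and 7 days with smaller ratios of 0.16 and 0.15. *Creb3l3*, a fasting-induced factor that acts with PPAR-alpha, was higher by 0.22 at 3 days and 0.23 at 7 days (adjusted *P* = 0.0128 and 0.00788).

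*Mlxipl*, which encodes ChREBP, changed in both directions. Its ratio was 0.33 at 1 day, −0.33 at 3 days, −0.42 at 7 days and 0.40 at 14 days, called at each time (adjusted *P* = 0.0325, 0.0166, 0.00393 and 0.0163). The 3 arrays of each time lay on the same side of 0.

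Of the 10 genes for FGF21 receptors and their signal, 8 were tested after gavage and 9 at 14 days, with 1 called higher at each of 1, 3 and 7 days, 2 called lower at 3 and 7 days and 1 lower at 14 days. *Frs2*, the docking protein of FGF receptors, was higher by 0.24, 0.49 and 0.54 at 1, 3 and 7 days (adjusted *P* = 0.0184, 0.000205 and 8.76e-05). *Fgfr3* was lower, at −0.32 and −0.48 at 3 and 7 days (adjusted *P* = 0.0234 and 0.00265), and its other probe was called at both times. *Fgfr4*, the main FGF receptor of hepatocytes, was at −0.22, −0.20 and −0.21 at 3, 7 and 14 days, all called, but its other probe was at −0.15 and −0.05 at 3 and 7 days and not called.

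**Figure D3:**
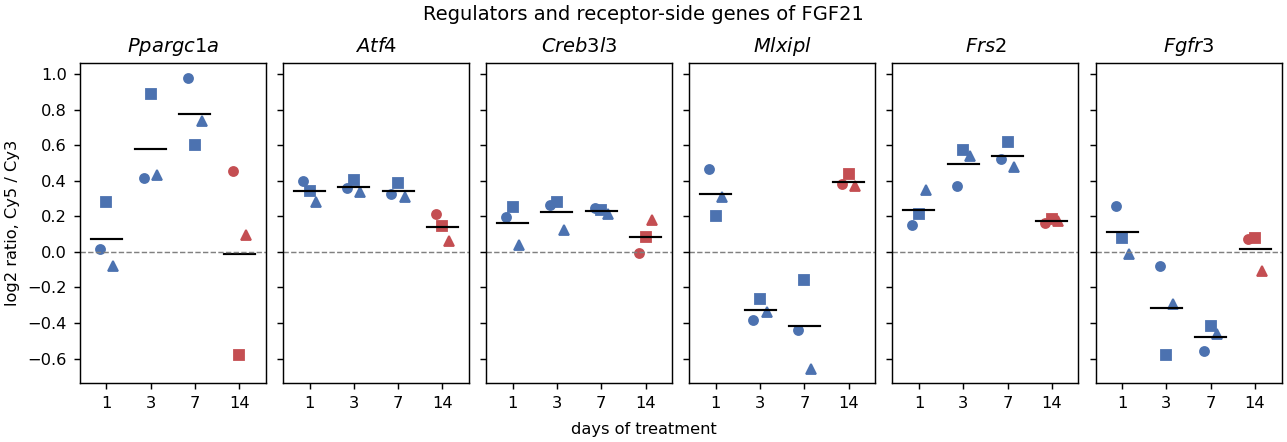
Log2 ratio of treated over control RNA (y axis) of 4 factors that act on *Fgf21* (*Ppargc1a*, *Atf4*, *Creb3l3*, *Mlxipl*) and 2 genes of FGF receptor signaling (*Frs2*, *Fgfr3*) at 1, 3, 7 and 14 days (x axis). Symbols and colors are those of the plot of all 9 hepatokine genes. *Mlxipl* lies above 0 at 1 and 14 days and below 0 at 3 and 7 days, while *Frs2* and *Atf4* lie above 0 on all 12 arrays.

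*Angptl4* was bright in both channels. Its log2 ratios were 0.06, −0.00 and 0.26 at 1 day, 0.40, 0.64 and 0.46 at 3 days, 0.75, 0.54 and 0.49 at 7 days, and 0.45, −0.21 and 0.58 at 14 days. All 6 arrays of 3 and 7 days were above all 3 of 1 day, and 1 array of 14 days was below 0. The share of all probes with that order is not given. Lying above 0 on all 3 arrays held for 26.6% of the probes tested at 3 days and 30.5% at 7 days. The mean was 0.50 ± 0.13 (SD, n = 3) at 3 days, 1.42-fold (adjusted *P* = 0.0187), and 0.59 ± 0.14 at 7 days, 1.51-fold (adjusted *P* = 0.00688). At 1 day it was 0.10 ± 0.14 (adjusted *P* = 0.65), and at 14 days 0.27 ± 0.42 (adjusted *P* = 0.22). The call at 3 days was lost without array 2 (adjusted *P* = 0.112) or array 3 (0.0656) and with the spread taken from the 3-day arrays alone (0.0571), and that at 7 days without array 1 (0.0518). Without array 2, the one below 0, the 14-day mean was 0.51 (adjusted *P* = 0.0197).

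The difference between 7 days and 1 day for *Angptl4* was 0.49 (adjusted *P* = 0.12), and it was called when the gavage arrays alone were fitted, without (adjusted *P* = 0.046) and with the replicate number as a block (0.0432). Between 3 days and 1 day the difference was 0.40 (adjusted *P* = 0.32). On the one slide that held both times, the single array of 3 days exceeded the mean of the 1-day arrays by 0.30.

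Of the 16 genes that share control by PPAR-alpha with *Fgf21* and *Angptl4*, all were tested. At 3 days 4 were called higher and 3 lower, at 7 days 3 higher and 4 lower, at 1 day 1 each way, and at 14 days 4 higher and 0 lower. Their median was −0.04 at 3 days and −0.07 at 7 days, beside 0.00 and 0.01 for all probes tested. *Cpt1a*, the entry enzyme of mitochondrial fatty acid oxidation, was higher by 0.33, 0.42 and 0.27 at 3, 7 and 14 days (adjusted *P* = 0.00115, 0.000196 and 0.00683). Its other probe, at 0.00, 0.10 and −0.06, was not called.

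*Fabp1*, the fatty acid binding protein of liver, was lower, at −0.45 and −0.64 at 3 and 7 days (adjusted *P* = 0.00278 and 0.000306). *Ucp2*, a mitochondrial carrier protein, was lower as well, at −0.52 and −0.55 (adjusted *P* = 0.0046 and 0.00216). *Vnn1*, an enzyme that forms cysteamine, was higher by 0.20 at 1 day and 0.48 at 14 days and lower at 7 days, at −0.34 (adjusted *P* = 0.0422, 0.000571 and 0.00132).

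Among 12 other angiopoietin-like genes and genes of lipoprotein lipase, 8 were tested after gavage and 7 at 14 days, with 0 called at 1 day, 1 lower at 3 and 7 days and 1 higher at 14 days. *Lipc*, hepatic lipase, was at −0.18 and −0.13 at 3 and 7 days (adjusted *P* = 0.0115 and 0.0341). *Lpl*, the target of ANGPTL4, was higher by 0.48 at 14 days (adjusted *P* = 0.0249), but its other probe read 0.05 then and was lower, at −0.28 and −0.34, at 3 and 7 days, both called. The probes of *Lpl* therefore gave no shared direction.

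**Figure D4:**
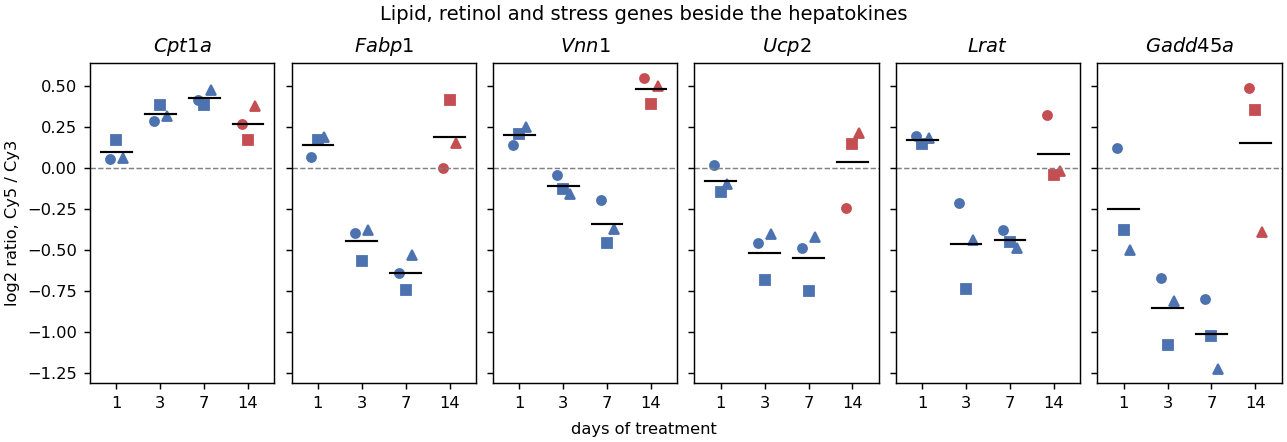
Log2 ratio of treated over control RNA (y axis) of the PPAR-alpha targets *Cpt1a*, *Fabp1*, *Vnn1* and *Ucp2*, of the retinol-esterifying *Lrat* and of the stress gene *Gadd45a* at 1, 3, 7 and 14 days (x axis). Symbols and colors are those of the plot of all 9 hepatokine genes. *Cpt1a* lies above 0 on all 12 arrays, and *Fabp1*, *Ucp2*, *Lrat* and *Gadd45a* lie below 0 on all arrays of 3 and 7 days.

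*Gdf15* was the hepatokine gene called lower. Its log2 ratios were −0.51, 0.26 and 0.45 at 1 day, −0.59, 0.13 and 0.25 at 3 days, −1.05, −0.50 and −1.19 at 7 days, and 0.26, −0.42 and −0.04 at 14 days. The arrays straddled 0 at every time except 7 days, when all 3 were below it. The mean at 7 days was −0.91 ± 0.36 (SD, n = 3), a ratio of 0.530 (adjusted *P* = 0.0118). At 1, 3 and 14 days it was 0.06 ± 0.51, −0.07 ± 0.46 and −0.07 ± 0.34 (adjusted *P* = 0.89, 0.85 and 0.90). The call at 7 days was lost without array 1 (−0.85, adjusted *P* = 0.0675) or array 3 (−0.78, adjusted *P* = 0.0851).

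The control signal of *Gdf15* differed between pools more than between times. It was 1263, 853 and 758 on arrays 1, 2 and 3 of 1 day, 1212, 860 and 854 at 3 days, and 1365, 846 and 737 at 7 days, so that control pool 1 was the highest each time. The treated signals were 888, 1018 and 1032, then 803, 944 and 1017, and then 658, 598 and 323. Array 1, with its higher control pool, was below 0 at all 3 gavage times.

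That pattern was not particular to *Gdf15*. Over 18397 probes, control channels that bore the same array number at different gavage times differed by a median of 0.0549 to 0.0752 on the log2 scale (9 pairs), and those of different numbers by 0.0956 to 0.138 (18 pairs). The labels do not say whether the same control RNA was used at all 3 gavage times. If it was, the tests at 1, 3 and 7 days share their controls and are not independent. The difference of *Gdf15* between 7 days and 1 day, −0.98, had an adjusted *P* of 0.0835 with all 12 arrays and 0.0686 there with the replicate number as a block. In a fit of the gavage arrays alone it was 0.118, and 0.0379 with the block.

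Of 14 stress response genes, 11, 10, 12 and 10 were tested at 1, 3, 7 and 14 days, with 1 called higher at each gavage time and 1 lower at 3, 7 and 14 days. The one called higher was *Atf4*, which is also in the list of factors that act on *Fgf21*. *Gadd45a*, a gene of growth arrest and DNA damage, was lower at 3 and 7 days, at −0.86 ± 0.21 and −1.02 ± 0.21 (SD, n = 3, adjusted *P* = 0.00674 and 0.00202). Its arrays at 14 days, 0.49, 0.35 and −0.39, straddled 0. *Asns*, asparagine synthetase and a target of ATF4, was lower at 14 days, at −0.70, −0.66 and −0.92 (adjusted *P* = 0.0377), and straddled 0 at each gavage time.

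*Rbp4* had the smallest adjusted *P* of the 8 genes tested. Its log2 ratios were 0.18, 0.06 and 0.08 at 1 day, 0.29, 0.37 and 0.39 at 3 days, 0.42, 0.25 and 0.42 at 7 days, and 0.07, −0.10 and −0.04 at 14 days. All arrays of 3 and 7 days lay above all arrays of 1 and 14 days. The share of all probes that separated in this way is not given, and 23.4% and 29.5% of probes were called at 3 and 7 days. The mean was 0.35 at 3 days, 1.28-fold (adjusted *P* = 0.0011), and 0.37 at 7 days, 1.29-fold (adjusted *P* = 0.000597). At 1 day the mean was 0.11 (adjusted *P* = 0.181) and at 14 days −0.02 (adjusted *P* = 0.819). The call at 3 days was lost when the spread was taken from the 3-day arrays alone (adjusted *P* = 0.0606), and a call was gained at 1 day under normexp background correction with loess (0.33, adjusted *P* = 0.000279).

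*Rbp4* was the single hepatokine gene of 8 called between 7 days and 1 day, with a difference of 0.26 (adjusted *P* = 0.0473), where 6.98% of all probes were called, and 3.28% as higher. That call lay close to the threshold and was lost when any one of the 6 arrays compared other than array 2 of 7 days was left out (adjusted *P* from 0.0656 to 0.144). Between 14 and 7 days the difference was −0.39 (adjusted *P* = 0.0158), where 6.61% of probes were called, and 3.15% as lower. It was lost with arrays centered on the median (−0.22, adjusted *P* = 0.103) and without array 3 of 7 days (0.0653) or arrays 2 (0.0635) or 3 (0.0549) of 14 days.

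Of 8 other genes for carrying and storing retinol, 5 were tested, with 1, 3 and 3 called lower at 1, 3 and 7 days and 1 called higher at 7 days. *Lrat*, which esterifies retinol for storage in stellate cells, was at −0.47 and −0.44 at 3 and 7 days (adjusted *P* = 0.00635 and 0.00571). *Rdh11*, a retinal reductase, was at −0.45, −0.51 and −0.34 at 1, 3 and 7 days (adjusted *P* = 0.0289, 0.00818 and 0.0368).

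*Ttr*, the plasma partner of RBP4, was higher by 0.22 at 7 days (adjusted *P* = 0.0263). At 7 days *Rbp4* and *Ttr* were higher in the treated pools, and *Lrat* and *Rdh11* were lower, *Rdh11* already from 1 day. A contrast of secreted carriers with genes that act inside cells was not tested. *Ttr* is also on the list of hepatocyte markers. *Lrat* is also a stellate cell marker. Of 8 such markers 7 were tested, with 3 called lower and 0 higher at both 3 and 7 days. The summed level of 8 stellate cell markers differed between the channels by −0.30 to −0.07 on the log2 scale at 3 days and by −0.19 to 0.11 at 7 days, and the part of these cells in the result was not tested.

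*Ahsg* and *Fetub* encode fetuin-A and fetuin-B. *Ahsg* had log2 ratios of 0.01, 0.04 and −0.02 at 1 day, 0.01, 0.19 and 0.13 at 3 days, 0.11, 0.25 and 0.24 at 7 days, and −0.03, −0.18 and −0.06 at 14 days. All 3 arrays were above 0 at 3 and 7 days and all 3 below it at 14 days. The mean at 7 days was 0.20, 1.15-fold (SE 0.05, adjusted *P* = 0.0103), and at 3 days 0.11 (adjusted *P* = 0.105). Under normexp with loess the means were 0.27, 0.36 and 0.42 at 1, 3 and 7 days, all called (adjusted *P* = 0.0119, 0.00149 and 0.0003755). The 7-day call was lost with arrays centered on the median (0.09, adjusted *P* = 0.347) and without array 2 (0.0649) or array 3 (0.071). The difference between 14 and 7 days was −0.28 (adjusted *P* = 0.0333), and it was lost with arrays centered on the median (−0.11, adjusted *P* = 0.41) and when any one of the 6 arrays other than array 1 of 7 days was left out (0.06 to 0.116).

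*Fetub* had log2 ratios of −0.13, −0.24 and −0.14 at 1 day, −0.16, −0.22 and −0.05 at 3 days, −0.12, −0.14 and 0.07 at 7 days, and −0.12, −0.25 and −0.11 at 14 days. It lay below 0 on 11 of 12 arrays. Its means of −0.17, −0.14, −0.06 and −0.16 did not pass the test (adjusted *P* = 0.0663, 0.0735, 0.408 and 0.0849). With the replicate number as a block they passed at 1, 3 and 14 days (adjusted *P* = 0.0169, 0.017 and 0.021). Being below 0 on all 3 arrays of a time, as *Fetub* was at those times, held for 22.4%, 26.3% and 27.7% of the probes tested.

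Of 7 other genes listed beside the fetuins, cystatin family genes with *Mep1a* and *Mep1b*, 4 were tested, and 1 was called lower at 3 and 7 days. It was *Cst3*, an inhibitor of cysteine proteases, at −0.15 both times (adjusted *P* = 0.0214 and 0.0196).

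*Angptl6*, *Lect2* and *Selenop* were called at no time. *Angptl6*, a circulating angiopoietin-like factor, ranged from −0.10 to 0.27 over the 12 arrays, with means of 0.10, −0.03, 0.02 and 0.10 (adjusted *P* = 0.28, 0.75, 0.83 and 0.27). *Lect2*, a chemotactic hepatokine, was at −0.13, −0.08 and −0.17 at 1 day, all below 0, with a mean of −0.13 (adjusted *P* = 0.17), and at means of 0.05, 0.06 and 0.06 later. *Selenop*, the carrier of selenium in plasma, had means of 0.05, −0.02, −0.03 and 0.02 (adjusted *P* = 0.609, 0.798, 0.747 and 0.895).

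A list of 16 genes held those for selenoprotein synthesis, selenoproteins such as *Gpx3*, and the receptors *Lrp2* and *Lrp8*. Of these 16, 14 were tested, with 1 called lower at 1 day, 3 lower at 3 days, and 3 lower and 1 higher at 7 days. *Gpx3*, the secreted glutathione peroxidase, was below 0 on all 12 arrays, as were 5.8% of probes, with −0.42 and −0.34 at 3 and 7 days (adjusted *P* = 0.00625 and 0.0111), and *Pstk*, the kinase that acts on the tRNA of selenocysteine, read −0.29 and −0.28 (adjusted *P* = 0.00385 and 0.00323). *Eefsec*, the elongation factor for selenocysteine, was at −0.17 at 1 day (adjusted *P* = 0.0208). *Secisbp2*, which recruits that factor, was at −0.44 at 7 days (adjusted *P* = 0.00083), but its other probe read 0.02.

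Of 23 further genes for secreted liver factors, 20 were tested after gavage and 19 at 14 days. At 1 day 1 was called each way, at 3 days 2 higher and 5 lower, at 7 days 3 higher and 3 lower, and at 14 days 1 higher. *Bmp6*, which signals iron stores, was higher by 0.53, 0.65 and 0.55 at 1, 3 and 7 days (adjusted *P* = 0.00627, 0.00102 and 0.00152). Its arrays of 14 days read 0.72, 1.04 and 0.83, but it was not tested then because a control signal was at background. It was above 0 on all 12 arrays, as were 7.26% of the 18397 probes above background throughout. *Apoh*, beta-2-glycoprotein I, was higher by 0.15, 0.19 and 0.17 at 3, 7 and 14 days (adjusted *P* = 0.0191, 0.00472 and 0.0267).

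*Igfals*, which stabilizes circulating IGF, was at −0.31 and −0.42 at 3 and 7 days (adjusted *P* = 0.0397 and 0.00903). *Gdf2*, which encodes BMP9, was at −0.19, −0.16 and −0.15 at 1, 3 and 7 days (adjusted *P* = 0.0173, 0.0151 and 0.0149). Genes for secreted factors outside the 9 were thus called in both directions.

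Some markers of cell types were called at 3 and 7 days as well. Of 10 hepatocyte markers, 2 were called higher at 3 days and 4 at 7 days, with 1 lower, and the log2 ratio of their summed level averaged 0.11 and 0.18, against 0.04 at 1 day and 0.01 at 14 days. *Alb*, 1 of these 10 markers, was higher by 0.25 and 0.41 at 3 and 7 days, more than their summed level. Among all probes 12.3% and 15.3% were called higher at 3 and 7 days, and 11.1% and 14.3% lower. Of 8 Kupffer cell markers, 4 and 5 were called lower at 3 and 7 days, and the log2 ratio of their summed level ran from −0.41 to −0.31 and from −0.46 to −0.35, against −0.18 to 0.20 at 14 days. Of 8 neutrophil or lymphocyte markers 4 were tested, with 2 called lower and 1 higher at 3 days and 3 lower at 7 days, when the log2 ratio of the summed level ran from −0.62 to −0.25. The log2 ratio of 7 summed adipocyte markers ran from −2.09 to −0.08 at 7 days, with the defining ones at background. It straddled 0 at 1 day, ran from −1.92 to −0.27 at 3 days and from 0.07 to 0.84 at 14 days. The control sums of these markers ran from 0.668 to 2.38, 0.624 to 2.46 and 0.578 to 2.40 at 1, 3 and 7 days. How far this spread between control pools set the ratios was not tested. The part of all these cell types in the ratios of *Rbp4*, *Ahsg*, *Angptl4* and *Gdf15* was not tested either.

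Between 7 and 3 days 0 of 19087 probes were called with limma (904 at an unadjusted *P* under 0.05), and so none of the 8 hepatokine genes. The differences were 0.09 for *Angptl4*, 0.01 for *Rbp4* and −0.85 for *Gdf15* (adjusted *P* = 0.946). On the slide that held 2 arrays of each time, the differences were 0.09, −0.05 and −0.97, and 0.93 for *Fgf21*. Between 3 days and 1 day 0.0208% of 19210 probes were called and 0 of the 8 genes. No slide held arrays of both 1 and 7 days, or of both 7 and 14 days, so slide and time cannot be told apart there.

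The level of each gene within its probe is the log2 signal above the 75th percentile of the channel. The order of the 8 levels of *Angptl4*, by time and pool, began with the treated pools of 7 and 3 days at 6.22 and 6.13, followed by the treated pools of 1 day at 5.75 and the control pools of 1, 7 and 3 days at 5.65, 5.64 and 5.63, which did not differ beyond their spread. The treated and control pools of 14 days came last, at 4.74 and 4.47. *Gdf15* ran the other way, with the control and treated pools of 14 days on top at 2.88 and 2.81, a middle set of 5 between 1.27 and 1.42, and the treated pools of 7 days at the bottom at 0.40 ± 0.59 (SD, n = 3).

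Control levels alone separated the water from the gavage experiment. *Angptl4* stood at 5.64 ± 0.07 in the 9 gavage controls and 4.47 ± 0.17 in the 3 water controls, and *Gdf15* at 1.34 ± 0.35 and 2.88 ± 0.19 (SD). The labels do not say whether the same control RNA was used at all gavage times. If it was, the 9 gavage controls are not 9 separate pools, and their SD does not measure the spread between 9 pools. *Angptl6*, *Fetub*, *Ahsg* and *Rbp4* were also lower in the water controls, with no overlap and differences of −0.61, −0.74, −0.61 and −0.39. The share of all probes whose control levels separated in this way is not given. The summed level of 10 hepatocyte markers was lower too, at 1215 to 1762 in water controls against 2371 to 2854 in gavage controls. So were those of 8 Kupffer cell markers (30.1 to 34.2 against 43.7 to 53.2) and 8 stellate cell markers (29.1 to 30.9 against 31.9 to 42.1). The sums of 10 pancreas acinar markers (5.67 to 6.52 against 8.02 to 9.04) and 7 adipocyte markers (0.336 to 0.491 against 0.578 to 2.46) were lower as well. That of 8 endothelial cell markers was not lower, at 34.8 to 37.1 against 30.1 to 34.8. The sums of bile duct, red blood cell and neutrophil or lymphocyte markers overlapped. Whether the lower levels were particular to the hepatokine genes was not tested. The ranges of *Fgf21* and *Selenop* overlapped, and *Lect2* was at 5.71 against 5.82. Agent, mice, slide and software version cannot be told apart in this difference, which exceeds most of the treatment ratios.

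Across the 12 arrays, the probes whose ratio most resembled that of *Fgf21* were those of *Drg2* and *Cdkn2c* (Pearson r = 0.90 and 0.88 over 14670 probes). For *Angptl4* they were *Fth1*, *Ubl3* and *Tex10* (r = 0.93, 0.91 and 0.90), and for *Gdf15* they were *Parva*, *Cgn* and *Dtymk* (r = 0.90, 0.86 and 0.85). Among the 9 genes themselves, *Ahsg* and *Rbp4* were most alike (r = 0.83), a likeness that fell to 0.26 once group means were removed. For *Angptl4* and *Lect2* r was 0.73, and 0.68 within groups. *Fgf21* and *Gdf15* had r = −0.57, and −0.44 within groups. The arrays share their dyes and, in part, their slides, so these values are descriptions over 12 points. Those of *Fgf21* also rest on a control signal that was at background on every array but the first of 14 days.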

How the data were processed

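Each of the 12 two-color arrays set pooled liver RNA of H2-treated *db*/*db* mice (Cy5) against a control pool (Cy3), with 3 arrays in each of 4 groups. The authors scanned the arrays and deposited intensity values that Feature Extraction had corrected for background and normalized between the dyes by a linear and a lowess step within each array. The submitters' processing notes give version 10.10.1, and the file headers give 10.10.1.1 for the gavage arrays and 10.7.3.1 for the 14-day arrays. The deposited log10 ratio and the log2 values of the authors' series table hold the same ratios, with a largest difference of 1.4e-06 on the log2 scale, and served as a check. The deposited median intensity of spots and local background was used for one alternative. Detection, outlier and saturation flags were also read.

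Control spots and spots marked non-uniform or as population outliers (160 to 244 per array) were left out, and the log2 ratio of processed Cy5 over Cy3 was used without further scaling. The ratio of the channel totals was 1.01 to 1.03. Probes were named through RefSeq records (GRCm38.p6), which gave 26761 of 39429 probes a symbol, and a gene with several probes was represented by the one of highest mean signal. All 12 arrays were fitted with limma 3.58.1 in R 4.3.3, with group means tested against 0 and 4 contrasts between times, two-sided, with Benjamini-Hochberg adjustment over all probes tested and a threshold of 0.05. *P* values measure the spread between pools, and the number of arrays limits the precision. The fit was tested on simulated data.

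Same-numbered arrays of 1, 3 and 7 days deviated together (r from 0.368 to 0.655 over pairs), which pairs them by the data alone, and with 14 days r ran from −0.0409 to 0.288. The replicate block was an alternative. Other alternatives were channel totals, median centering, normexp (offset 50) with loess, no background filter, the spread of the compared arrays alone, slide as a random block, the methods' t-test and leaving out each array. The members and gene lists were chosen with earlier results of these data known. Named beside the members are, from each list, up to 4 called genes by smallest adjusted *P*, and the 3 probes most correlated with *Fgf21*, *Angptl4* and *Gdf15*. Some genes that this rule gives are not reported here. Cell markers are named as a check only.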

Additional observations from a re-analysis of the deposited data

Results flagged for a closer look

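Differences in log2 ratio between times were called for *Rbp4* and *Ahsg*. Each of these calls was lost with arrays centered on the median, with the compared arrays alone and when some single arrays were left out. The log2 ratio of *Rbp4* was larger at 7 days than at 1 day by 0.26 (limma contrast, adjusted *P* = 0.0473), and lower at 14 days of H2-water than at 7 days of gavage, with a difference of −0.39 (adjusted *P* = 0.0158). That of *Ahsg* was lower at 14 than at 7 days, with a difference of −0.28 (adjusted *P* = 0.0333). *Ahsg* was above 0 on all 3 arrays of 3 days and below 0 on all 3 of 14 days, with a difference in means of −0.20 that was not tested. Agent, mice and slide differ between 14 days and the other times and cannot be told apart from the length of treatment. No group had more than 3 arrays, so single arrays were not tested as outliers.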

How the results depend on the processing

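The main counts of called hepatokine genes were 0, 2, 4 and 0 at 1, 3, 7 and 14 days, 0 and 1 for 3 and 7 days against 1 day, 0 for 7 against 3 days and 2 for 14 against 7 days. At 1 day the count was 3 under normexp with loess (*Ahsg*, *Rbp4* and *Selenop*), and 1 with channels scaled by their totals, with the replicate block, with slide as a random block, with the block in the gavage arrays alone (all *Fetub*) and with the methods' t-test unadjusted (*Rbp4*). At 3 days it was 1 without the background filter and 0 with the spread of the compared arrays alone or the methods' t-test after Benjamini-Hochberg adjustment, 3 with channel totals, the replicate block with or without the 14-day arrays, or the slide block (*Fetub* added) and under normexp with loess (*Ahsg* added), and ranged from 1 to 2 when an array was left out. At 7 days it was 5 without the background filter (*Fgf21* added), and 3 with median centering or the compared arrays alone (*Ahsg* lost). With the methods' t-test it was 0 adjusted and 2 unadjusted (*Angptl4* and *Rbp4*), and it was 2 to 3 when an array was left out. At 14 days it was 1 under normexp with loess, the replicate block or the slide block (*Fetub*), and 0 to 1 when an array was left out. For 7 days against 1 day it was 0 with channel totals, median centering, no filter or the compared arrays alone, 3 with the block in the gavage arrays alone (*Rbp4*, *Angptl4* and *Gdf15*), and 0 to 1 when an array was left out. For 14 against 7 days it stayed at 2 with median centering but for other genes, *Angptl6* (0.26, adjusted *P* = 0.0372) and *Gdf15* (1.02, 0.0419) in place of *Ahsg* and *Rbp4*, and it was 0 with the compared arrays alone and 0 to 2 when an array was left out. The fits of gavage arrays alone were chosen after seeing the data. In 968 recomputed single-gene values, 903 kept their side of the threshold, 23 crossed to called and 42 to not called, and none that was called changed sign. With all 12 arrays the replicate block changed no hepatokine call but those of *Fetub* at 1, 3 and 14 days. For 7 days against 1 day in the gavage arrays alone, *Angptl4* was called without (adjusted *P* = 0.046) and with the block (0.0432), and *Rbp4* (0.0724 and 0.047) and *Gdf15* (0.118 and 0.0379) with the block alone. The cause of these changes was not tested.

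Median centering moved the median of all tested probes by −0.11 at 7 days, −0.10 for 7 against 3 days and 0.17 for 14 against 7 days. Higher and lower calls over all probes were then 967 and 5190 at 7 days, 330 and 494 at 1 day, 1227 and 104 at 14 days, 122 and 963 for 7 days against 1 day and 3707 and 106 for 14 against 7 days, against 2973 and 2775, 1013 and 833, 1005 and 799, 628 and 708, and 645 and 589. With channel totals they were 711 and 1634, 1761 and 2824 (main 2388 and 2149), 2370 and 3371, and 788 and 1180 at 1, 3, 7 and 14 days. With the compared arrays alone they were 99 and 2, 185 and 107, 1172 and 1006, and 372 and 129. Of 79 calls of genes in the pathway lists, 74 remained with channel totals and with normexp and loess, 60 with median centering, 78 with the replicate block and 19 with the compared arrays alone, and 0 changed sign.

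The control signal of *Fgf21* lay at background on 11 of 12 arrays, so its log2 ratios rest on a control channel that gives no more than a bound.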
